A study of Rattus norvegicus with 8 samples.

Results

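The R100E substitution was examined here by setting the arrays of a protein that carries it against all arrays of proteins that do not. The protein, of human sequence, was added to sensory neuron cultures in 1 of 3 forms: wild type, the single mutant P61S, or the double mutant P61S/R100E. The 3 P61S/R100E arrays formed one group. The 3 P61S arrays and the 2 wild type arrays, all with R100 intact, were put together as the other, so all 8 arrays of the series entered the comparison (3 against 5). Because P61S is absent from the 2 wild type arrays, the pooled group mixes both states of residue 61, while every P61S/R100E array carries P61S. Pooling asks which genes separate P61S/R100E from the mean of the 5 intact arrays, with more arrays on one side than either intact form alone supplies. That mean leans to P61S, and the test does not require a difference from each form.

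The labels give 1 protocol for all cultures, the protein aside, and do not say which culture had which donor age or time in vitro within the ranges given. Dorsal root ganglia of Wistar rats aged 0 to 5 days, with cells of males and females pooled, were dissociated and grown in serum-free medium containing fluorodeoxyuridine, an inhibitor of dividing cells. After 2 to 3 days in vitro each culture received its protein at 100 ng/ml for 5 days. No culture without added protein was analysed here, so each value is a contrast between proteins and not a response to one. One-colour Agilent arrays measured the RNA of whole cultures. A smaller number of cells of a type and less RNA per cell therefore cannot be told apart. No label states that replicates were separate cultures or litters, so the p-values describe the spread between these arrays, which may be technical.

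Dorsal root ganglia hold the cell bodies of the sensory neurons that carry pain, itch, temperature and touch to the spinal cord, wrapped by satellite glia and followed along their axons by Schwann cells. Small neurons of the pain and itch pathways store neuropeptides such as substance P and calcitonin gene-related peptide, and sense their surroundings through ion channels of the Trp family, protease-activated receptors and Mas-related receptors. After axon damage these neurons exchange part of this repertoire for peptides such as galanin and vasoactive intestinal peptide.

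The signal at the 75th percentile ran from 3267 to 5269 over the 8 arrays, 78.7% to 88.8% of the spots passed the scanner's background test, and saturation was marked on 0 spots. Values below are log2 signals minus the log2 of that percentile, so a value of 0 is at that percentile of the array. Wild type replicate 2 stood apart on the first principal component of the tested probes, at 62.0 against -22.3 to 9.45 for the other arrays. P61S replicates 1 and 3 were alike to an unusual degree. Over 11082 probes with 2 spots, the robust SD of their difference was 0.0633 on the log2 scale, 1.38 times the noise between spots of one probe, while for the other 27 pairs of arrays that ratio lay between 3.02 and 5.87. Whether these arrays carry the same RNA is not stated, so the adjusted p of each named called gene is given with the pair as 2 samples and again with their mean as 1 sample.

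At this layout, limma called 21 of 22565 tested probes at an adjusted p under 0.05, or 0.0931%. Of these, 12 were higher with P61S/R100E (0.0532%) and 9 were lower (0.0399%). With P61S replicates 1 and 3 averaged into 1 sample, limma called 1 probe, that of Lrat. The sizes hardly moved under that averaging, staying between 0.966 and 1.03 times the reported differences, whereas the adjusted p of the other 20 probes rose above the threshold, to 0.0534 for Vip, 0.0752 for Anxa3, 0.0929 for Pde6b and between 0.111 and 0.146 for the other named genes. At an unadjusted p under 0.05 the counts were 1330 probes (5.89%) with all 8 arrays, 602 higher (2.67%) and 728 lower (3.23%), and 1007 with the averaged pair. The called differences ran from 1.56-fold to 3.24-fold, with a median of 0.85 on the log2 scale. Leaving out any of the 3 P61S/R100E arrays, or wild type replicate 1, left 0 calls. The count was 1, 2 and 3 without P61S replicate 1, P61S replicate 3 and wild type replicate 2, and 35 without P61S replicate 2.

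Of the 21 called probes, 18 carried a gene symbol, 11 of them higher and 7 lower. On all 21 the values of the 3 P61S/R100E arrays and the 5 pooled arrays did not overlap. Among all tested probes this separation was found for 1281, or 5.68% (2.49% above the pool and 3.19% below it). All 21 were well above background on all 8 arrays. The genes called higher encode a neuropeptide (Vip), a cytokine (Il24), a peptide receptor (Cckbr) and an orphan receptor (Gprc5a). Others of them encode a phosphodiesterase subunit (Pde6b), a transcription factor (Elf5) and secreted, membrane-associated or structural proteins. Those called lower encode a retinol-esterifying enzyme (Lrat), receptors of sensory neurons (F2rl1, Mrgprb5), calcium-responsive proteins (Calb2, Camk4), a claudin (Cldn3) and an interleukin receptor (Il7r).

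**Figure D1:**
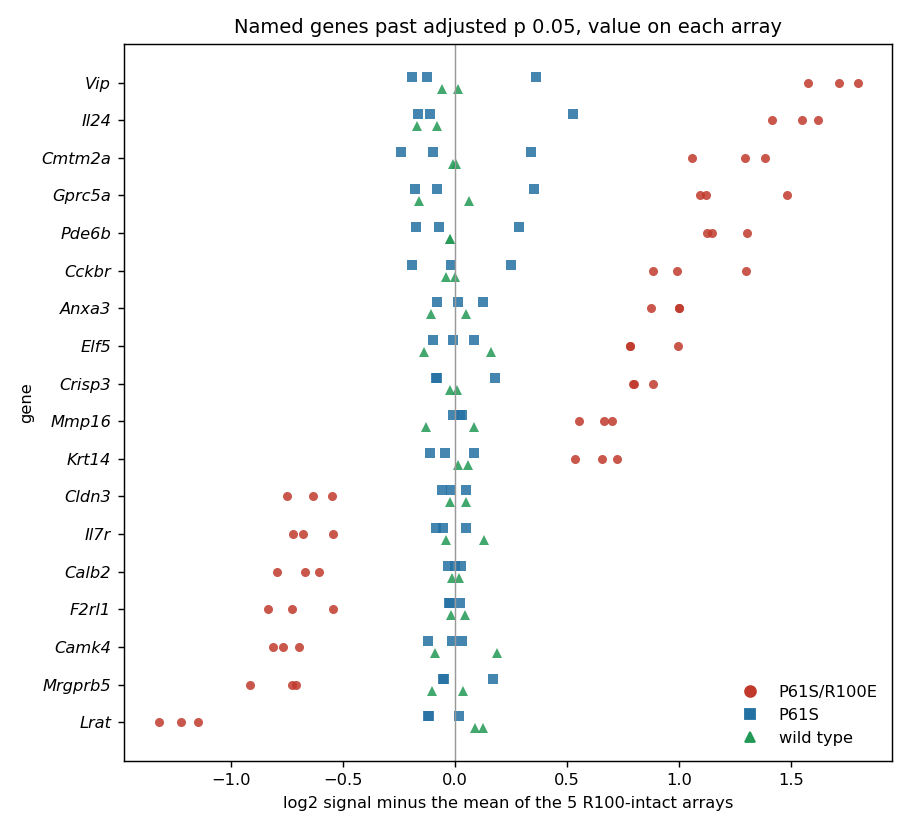
Value of each named called gene on every array, as log2 signal minus the mean of the 5 R100-intact arrays (horizontal axis); circles are P61S/R100E, squares P61S and triangles wild type. The 3 circles of each gene lie on one side of all 5 other points, farthest for Vip and Il24 on the right and for Lrat on the left.

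The promoters of Vip and Il24 are shown because these genes had the largest increases among the called probes. They are the 250 bases upstream of each start in RefSeq (GRCr8), written 5′ to 3′ on the gene's strand, with one matching motif in capitals. Vip, at chr1:44470230-44470479 on the plus strand, has in capitals the letters TGACG, the core of the cyclic AMP response element, with its first base at position -97 from the start. Il24, at chr13:44910761-44911010 on the minus strand, has in capitals a match to TTCNNNGAA, the letters bound by STAT factors, with its first base at position -152.
Vip: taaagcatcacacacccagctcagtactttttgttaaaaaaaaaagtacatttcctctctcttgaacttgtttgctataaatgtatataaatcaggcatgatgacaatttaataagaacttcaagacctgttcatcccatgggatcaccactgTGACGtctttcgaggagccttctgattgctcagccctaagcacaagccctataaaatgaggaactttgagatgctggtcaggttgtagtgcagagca
Il24: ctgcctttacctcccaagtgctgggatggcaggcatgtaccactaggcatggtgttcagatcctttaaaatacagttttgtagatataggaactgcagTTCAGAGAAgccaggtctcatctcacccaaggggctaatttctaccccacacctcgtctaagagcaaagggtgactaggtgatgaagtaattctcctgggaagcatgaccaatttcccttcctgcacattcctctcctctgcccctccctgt

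Motifs were searched on both strands in those 250 bases for 18 of the 24 genes with the smallest p, the ones with a RefSeq window, and were chosen with the results known. The core TGACG was found in 1 of 8 higher genes (Vip) and 1 of 10 lower genes (Nts), beside 18.2% of all 33469 windows. TTCNNNGAA was found in 2 of 8 (Il24, Cmtm2a) and 1 of 10 (Reg3b), beside 7.67% of windows, and TGANTCA, the AP-1 letters, in 1 of 8 (Pde6b) and 2 of 10 (Nts, Sting1), beside 6.34%. The full element TGACGTCA, which contains the core, was found in 0 of the 18 windows and 1.59% of all, and the spaced direct repeat bound by retinoic acid receptors in 0 of 18 and 0.0657% of all. These matches describe letters only.

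The largest called difference was that of Vip (probe A_64_P096924), the gene of vasoactive intestinal peptide, a messenger that raises cyclic AMP in its target cells. Its values were 1.46, 1.54 and 1.32 on the P61S/R100E arrays, -0.38, 0.10 and -0.45 with P61S, and -0.31 and -0.24 with wild type. The lowest P61S/R100E array thus stood 1.22 above the highest intact array, which was P61S replicate 2. The difference was 1.70 (SE 0.130, 95% bounds 1.40 and 2.00), a 3.24-fold higher signal, with a limma adjusted p of 0.0116 (0.0534 with the pair averaged).

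Il24 (probe A_43_P15489) encodes a cytokine of the interleukin-10 family that signals through STAT factors. Its values were 0.12, 0.33 and 0.26 with P61S/R100E, -1.40, -0.76 and -1.45 with P61S, and -1.46 and -1.37 with wild type. P61S replicate 2 was again the intact array nearest to the P61S/R100E arrays, by 0.89. The difference was 1.53 (SE 0.166), or 2.88-fold, with a limma adjusted p of 0.0287 (0.115 with the pair averaged).

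Receptors were among the higher genes as well. Gprc5a, an orphan G protein-coupled receptor known to be induced by retinoic acid, was at -3.14, -2.75 and -3.12 with P61S/R100E, at -4.32, -3.88 and -4.41 with P61S, and at -4.18 and -4.40 with wild type (difference 1.23, SE 0.148, 2.35-fold, limma adjusted p 0.0340). Cckbr, the cholecystokinin B receptor, was at -3.52, -3.10 and -3.41, at -4.42, -4.15 and -4.59, and at -4.40 and -4.44 in the same order (difference 1.06, SE 0.126, 2.08-fold, limma adjusted p 0.0340). In both genes replicate 2 was the highest array among P61S/R100E and among P61S. With the pair averaged the limma adjusted p was 0.145 for Gprc5a and 0.137 for Cckbr. A second, dimmer Cckbr probe gave 0.40 (SE 0.249) and did not pass, with a limma adjusted p of 0.826.

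Several higher genes encode enzymes and membrane or secreted proteins. Pde6b, a subunit of the cyclic GMP phosphodiesterase of rod photoreceptors, was at -3.14, -2.98 and -3.16 with P61S/R100E, at -4.36, -4.00 and -4.46 with P61S, and at -4.31 on both wild type arrays (difference 1.19, SE 0.110, 2.29-fold, limma adjusted p 0.0192). Anxa3, a calcium-dependent phospholipid-binding annexin, was at -1.80, -1.80 and -1.92, at -2.79, -2.67 and -2.88, and at -2.75 and -2.90 (difference 0.96, SE 0.0774, 1.94-fold, limma adjusted p 0.0117). Its P61S/R100E arrays were close together and far from the intact ones. Crisp3, a secreted cysteine-rich protein, was at 0.46, 0.38 and 0.38 against -0.50, -0.24 and -0.50 with P61S and -0.41 and -0.44 with wild type (difference 0.83, SE 0.0794, limma adjusted p 0.0192). With the pair averaged none of these genes passed, at a limma adjusted p of 0.0929 for Pde6b, 0.0752 for Anxa3 and 0.111 for Crisp3.

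Cmtm2a, of a family of membrane proteins related to chemokines, differed by 1.25 (SE 0.137), or 2.37-fold, and a second probe of it gave 1.12 without passing (limma adjusted p 0.148). Mmp16, a membrane-anchored matrix metalloproteinase measured by 10 spots per array, differed by 0.64 (SE 0.0732). Krt14, a keratin of basal epithelial cells, differed by 0.64 (SE 0.0756), and Elf5, an ETS transcription factor of epithelia, by 0.85 (SE 0.0950). Elf5 was dim, between -7.23 and -6.09 on all arrays, and its difference was 0.34 after normexp background correction with quantile normalization. With the pair averaged the limma adjusted p was 0.115 for Cmtm2a and Elf5 and 0.145 for Mmp16 and Krt14. The transcription factor gene Stat4, next in rank, was at 0.64 (SE 0.0846) and did not pass, with a limma adjusted p of 0.0647.

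Lrat (probe A_44_P550748), lecithin retinol acyltransferase, which esterifies retinol for storage, was the most lowered named gene. Its values were -4.58, -4.48 and -4.41 with P61S/R100E, -3.38, -3.24 and -3.38 with P61S, and -3.13 and -3.17 with wild type. The closest arrays of the groups were 1.03 apart. The difference was -1.23 (SE 0.0860, 95% bounds -1.43 and -1.03), a 2.34-fold lower signal, with a limma adjusted p of 0.0116. With P61S replicates 1 and 3 averaged it was -1.26 (SE 0.0917, limma adjusted p 0.0452), and Lrat was past the threshold in 18 of 27 alternative fits, the most of the 21 probes.

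Both sensory receptors called lower are known from nociceptors and itch neurons. F2rl1, the protease-activated receptor PAR2, was at -3.22, -2.93 and -3.11 with P61S/R100E, at -2.41, -2.36 and -2.40 with P61S, and at -2.34 and -2.40 with wild type. Its 5 intact arrays ran only from -2.41 to -2.34. The difference was -0.70 (SE 0.0772), a 1.63-fold lower signal, with a limma adjusted p of 0.0287. Mrgprb5, a Mas-related receptor, was at -6.02, -6.23 and -6.04, at -5.14, -5.36 and -5.37, and at -5.41 and -5.28 (difference -0.78, SE 0.0879, limma adjusted p 0.0287). It was dim, and over the alternative fits its difference ran from -0.84 to -0.34. The smallest sizes, 0.34, came with outlier flags ignored and with the deposited values, where it was not called. Its reported size and call therefore rest on leaving out spots flagged as outliers. With the pair averaged the limma adjusted p was 0.127 for F2rl1 and 0.111 for Mrgprb5.

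Calb2, the gene of the calcium buffer calretinin, which marks a subset of large sensory neurons, was at -1.19, -1.07 and -1.0 with P61S/R100E against -0.37, -0.43 and -0.40 with P61S and -0.41 and -0.38 with wild type. The 5 intact arrays were close together, from -0.43 to -0.37. The difference was -0.69 (SE 0.0651), a 1.61-fold lower signal (limma adjusted p 0.0192). Camk4, a calcium- and calmodulin-dependent kinase that acts in neuronal nuclei, was at -1.70, -1.77 and -1.82 against -1.02, -0.97 and -1.12 and against -1.09 and -0.82 (difference -0.76, SE 0.0852, limma adjusted p 0.0287). Cldn3, a tight junction claudin, differed by -0.64 (SE 0.0693). Il7r, the interleukin-7 receptor alpha chain, differed by -0.65 (SE 0.0781), and its second probe by -0.61, which did not pass (limma adjusted p 0.761). With the pair averaged none of these genes passed, at a limma adjusted p of 0.111 for Calb2, 0.115 for Camk4 and Cldn3 and 0.146 for Il7r.

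Next in rank among lower genes were 5 that did not pass. Marchf11, a membrane-bound ubiquitin ligase, was at -0.66 (SE 0.0839, limma adjusted p 0.0509), Sting1, an adaptor of cytosolic DNA sensing, at -0.58 (limma adjusted p 0.0712) and Crtac1, a secreted matrix protein, at -0.71 (limma adjusted p 0.0739). Nts, the neurotensin gene, was at -2.91, -2.73 and -3.08 with P61S/R100E, at -2.0, -1.57 and -1.98 with P61S, and at -2.12 and -2.01 with wild type (difference -0.97, SE 0.137, limma adjusted p 0.0739). Its larger spread in the pool came from P61S replicate 2. Reg3b, a secreted lectin of injured sensory neurons, was bright, at 3.86 to 4.03 against 4.37 to 4.54 (difference -0.50, limma adjusted p 0.0743).

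The pool could hide a disagreement between P61S and wild type, so each named difference was also taken from either protein in a fit of 3 group means. For Vip it was 1.68 from P61S and 1.72 from wild type, and for Lrat -1.16 and -1.34. Il24 gave 1.45 and 1.65, Calb2 -0.69 from either protein, and Nts -1.05 and -0.84. Across the 21 called probes P61S minus wild type ran from -0.24 to 0.21, with a median absolute value of 0.048 beside 0.107 over all tested probes. A test on a pooled group favours probes whose pool is tight, and the median SD within the pool was 0.114 for the called probes and 0.156 over all. The P61S/R100E arrays are shared by both differences. For genes whose groups do not overlap, as here, both differences must have the same sign, so only their sizes could disagree.

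**Figure D2:**
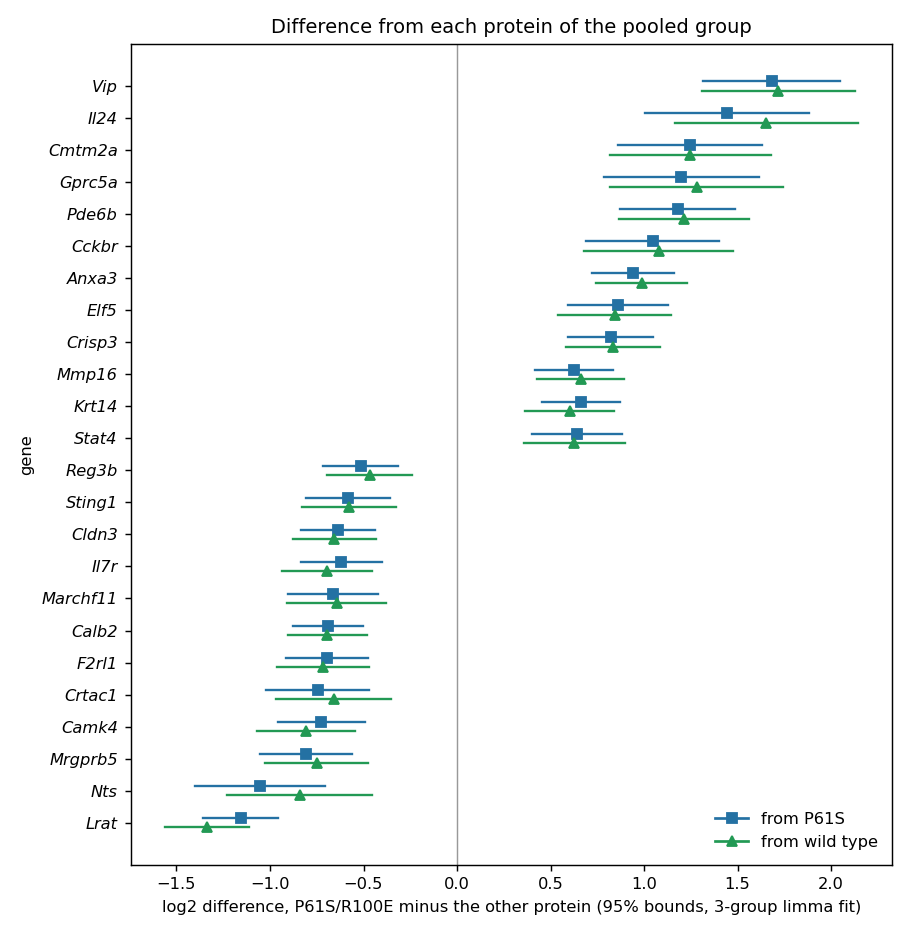
Log2 difference of P61S/R100E from P61S (squares) and from wild type (triangles), with 95% bounds from a limma fit of 3 group means, for the 12 genes of smallest p in each direction. Both estimates of a gene lie on the same side of 0, such as 1.68 and 1.72 for Vip and -1.16 and -1.34 for Lrat. This follows from the choice of genes, whose groups do not overlap.

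Between P61S and wild type themselves limma called 0 of 22565 probes (0%), with 440 probes (1.95%) at an unadjusted p under 0.05. Set against one intact protein only, P61S/R100E gave 0 calls from P61S alone (1496 probes at an unadjusted p under 0.05) and 0 from wild type alone (639). In 3 group means with equal weight for both intact proteins, limma called 1 probe, that of Lrat.

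P61S replicate 2 took a place of its own among the intact arrays. It was the highest array of the pool in 10 of the 12 probes called higher, beside 23.2% of all tested probes. It was the lowest in 2 of the 9 probes called lower, beside 12.8% of all tested probes. That made it the intact array nearest to P61S/R100E in 12 of the 21. Among P61S/R100E arrays, replicate 2 was the highest in 9 of the 12 probes called higher, a count without its share over all tested probes. Both arrays lay in column 2 of the slide, the only column with both groups. The difference within that column was 0.706 to 1.18 times the pooled size over the 21 probes (median 0.917), with no replicate. Its direction was the same for 21 of 21, which was fixed in advance because the groups of these probes do not overlap. The other P61S arrays lay in column 1, wild type in column 4 and the other P61S/R100E arrays in column 3, and with column as a covariate limma called 5 probes. The part of slide position in the calls was not tested further.

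The list counts that follow use all 8 arrays. The lists were written with earlier results of these data known, so their counts are not independent of the calls. Of the calls in them only that of Lrat was also made with P61S replicates 1 and 3 averaged.

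Neuropeptides are the messengers that sensory neurons release from dense-core vesicles. Of 30 measured genes of neuropeptides and vesicle cargo, 1 was called higher (Vip) and 0 lower, beside 0.0532% and 0.0399% of all tested probes. At an unadjusted p under 0.05 there were 4 higher and 7 lower, beside 2.67% and 3.23% of all tested probes. The median difference was -0.03 beside -0.04 over all tested probes. Gal, the galanin gene, was at 4.76, 4.66 and 4.72 with P61S/R100E, at 4.12, 4.52 and 4.12 with P61S, and at 4.24 and 3.99 with wild type, so its groups did not overlap (difference 0.51, SE 0.119, limma adjusted p 0.332). A second probe of Gal gave 0.52. Ucn, the urocortin gene, was at 0.63 (limma adjusted p 0.171).

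Peptide genes with lower values included Nts and Nppb, which encodes a natriuretic peptide that itch neurons release. Nppb was at -5.49, -5.66 and -5.27 with P61S/R100E against -4.70, -4.87 and -4.58 with P61S and -4.68 and -5.00 with wild type (difference -0.71, SE 0.123, limma adjusted p 0.148). Bdnf, a neurotrophin made by nociceptors, was at -1.11 to -0.94 against -0.79 to -0.61 (difference -0.32, limma adjusted p 0.311). Of the abundant pain peptides, Calca and Tac1 had overlapping groups. Calca, the calcitonin gene-related peptide gene, was at 5.71 to 5.92 against 5.76 to 6.22 (difference -0.11, SE 0.115), and Tac1, the substance P gene, at 4.53 to 4.76 against 4.71 to 5.05 (difference -0.14, SE 0.101). A second Tac1 probe gave -0.21 (SE 0.0743, limma adjusted p 0.736) and a second Calca probe -0.31 (SE 0.155, limma adjusted p 0.826). Calcb, the other calcitonin gene-related peptide gene, named here after its values were seen, lay below all 5 pooled arrays (difference -0.25, SE 0.0633, limma adjusted p 0.424).

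Of 30 measured nociceptor channels and receptors, 2 were called lower (F2rl1, Mrgprb5) and 0 higher, beside 0.0399% and 0.0532% of all tested probes. At an unadjusted p under 0.05, 8 were lower and 1 higher (3.23% and 2.67% of all tested probes). For 9 the P61S/R100E arrays lay below all 5 others and for 2 above (3.19% and 2.49% of all tested probes), and the median was -0.11. Trpv1, the capsaicin receptor, was at 0.26, 0.46 and 0.29 with P61S/R100E, at 0.56, 0.67 and 0.59 with P61S, and at 0.53 and 0.73 with wild type (difference -0.28, SE 0.0787, limma adjusted p 0.515). A second Trpv1 probe gave -0.35. Scn10a, a sodium channel of nociceptors, was at -0.13 (SE 0.0903), with overlapping groups. Among genes singled out after their values were seen, the irritant channel Trpa1 was at -0.88 (SE 0.236, limma adjusted p 0.485) and the ATP-gated channel P2rx2 at 0.57 (SE 0.0812, limma adjusted p 0.0743).

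Genes of axon injury and regeneration had 3 of 31 measured members called higher (Vip, Il24, Cckbr) and 0 lower, beside 0.0532% and 0.0399% of all tested probes. With the pair averaged all 3 calls were lost, at a limma adjusted p of 0.0534, 0.115 and 0.137. This list overlaps the others, since Vip is also a neuropeptide gene and Il24 also an inflammatory mediator. It was written with earlier results of these data known, so its count is not independent of these calls. At an unadjusted p under 0.05 there were 9 higher and 4 lower (2.67% and 3.23% of all tested probes), and the median was 0.12. The 4 lower were Reg3b (-0.50, limma adjusted p 0.0743), Reg3a (-0.45, limma adjusted p 0.0953), Il6 (-0.34) and Adcyap1 (-0.29). In each of these 4 the P61S/R100E arrays lay below all pooled arrays. Atf3, the transcription factor switched on in damaged sensory neurons, was at 3.69, 3.54 and 3.67 with P61S/R100E, at 3.41, 3.40 and 3.45 with P61S, and at 3.33 and 3.48 with wild type. Its groups did not overlap, and its difference of 0.22 (SE 0.0679) did not pass (limma adjusted p 0.641).

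Early genes and feedback regulators of the ERK pathway, which growth factor receptors switch on, had 0 of 32 members called by limma, with 6 lower and 1 higher at an unadjusted p under 0.05 (3.23% and 2.67% of all tested probes). In 6 the P61S/R100E arrays lay below all others and in 0 above (3.19% and 2.49% of all tested probes), and the median was -0.12. Dusp5, a phosphatase that acts on ERK in the nucleus, was at -1.79, -1.54 and -1.77 with P61S/R100E, at -1.26, -0.91 and -1.23 with P61S, and at -1.06 and -1.18 with wild type (difference -0.58, SE 0.104, limma adjusted p 0.161). Etv4, an ETS factor downstream of the pathway, was at -0.91 (SE 0.226), Spry4, a feedback inhibitor, at -0.31 (SE 0.0699), and Fosl1, an AP-1 subunit, at -0.24 (SE 0.0634). Of 14 measured members of the neurotrophin and GDNF families, limma called 0. At an unadjusted p under 0.05, 2 were lower and 0 higher (3.23% and 2.67% of all tested probes). Ngfr, the low-affinity neurotrophin receptor, was at 0.08 (SE 0.0736).

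**Figure D3:**
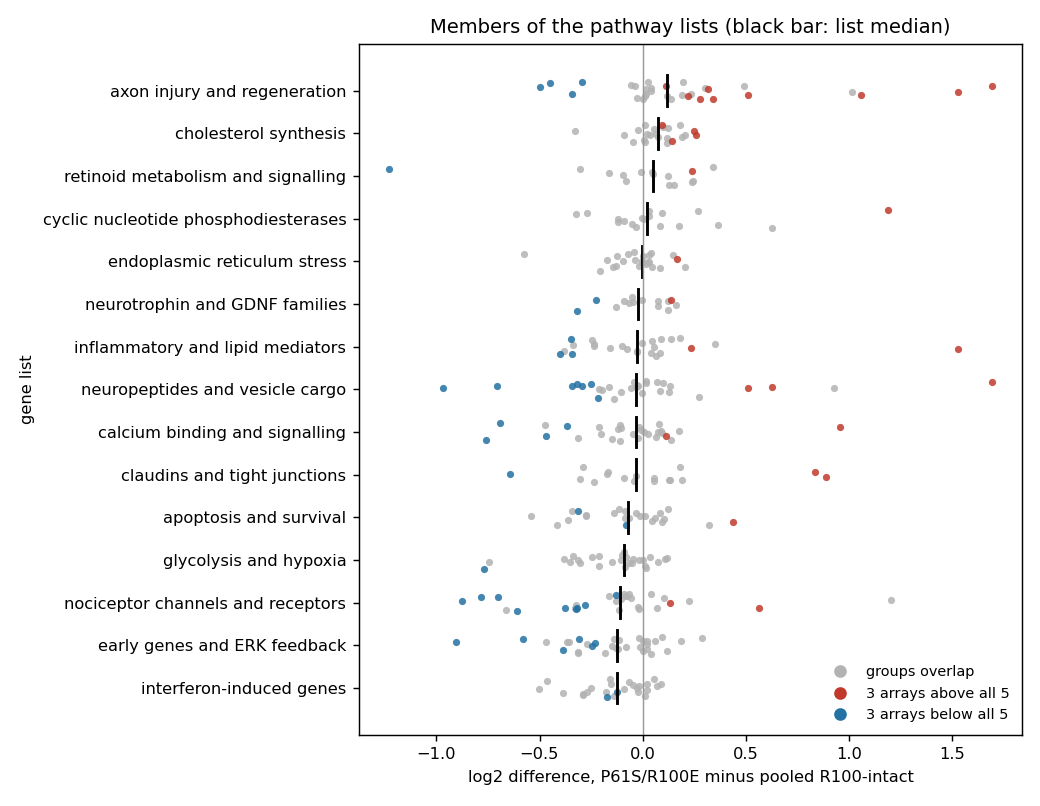
Log2 difference of each measured member of the 15 pathway lists (horizontal axis, P61S/R100E minus the pooled arrays), coloured where the 3 arrays lay above or below all 5 others; black bars are list medians. Medians ran from -0.12 for interferon-induced genes and for early genes to 0.12 for axon injury.

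Retinoid genes handle vitamin A and its active form. Of 15 measured, 1 was called lower (Lrat) and 0 higher (0.0399% and 0.0532% of all tested probes), with a median of 0.05. Summed over the list, the mean signal per gene was 188 to 216% of the 75th percentile with P61S/R100E and 171 to 186% on the pooled arrays, without overlap. Of the 23 lists only this one and cholesterol synthesis had no overlap. Most of the retinoid sum came from 1 bright gene, the retinoic acid-binding gene Crabp2, at 4.09 to 4.41 against 3.96 to 4.05. Its difference of 0.24 (SE 0.0824) did not pass (limma adjusted p 0.730). Of 28 genes of calcium binding and calcium signalling, 2 were called lower (Calb2, Camk4) and 1 higher (Anxa3), with a median of -0.03. Over all tested probes 0.0399% were called lower and 0.0532% higher.

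Among 17 measured claudins and tight junction genes 1 was called lower (Cldn3) and 0 higher (0.0399% and 0.0532% of all tested probes). At an unadjusted p under 0.05 there were 2 higher and 1 lower (2.67% and 3.23% of all tested probes), and the median was -0.03. The higher members were Cldn4 and Cldn7, which did not pass over all probes. Cldn4 was at -2.69, -2.37 and -2.63 with P61S/R100E, at -3.60, -2.96 and -3.65 with P61S, and at -3.64 and -3.42 with wild type (difference 0.89, SE 0.171, limma adjusted p 0.200). Cldn7, above background on 4 of the 5 pooled arrays, was at 0.84 (SE 0.203). Of 18 cyclic nucleotide phosphodiesterases 1 was called higher (Pde6b) and 0 lower (0.0532% and 0.0399% of all tested probes), and the median was 0.02.

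In 23 measured genes of cholesterol synthesis limma called 0, with 2 higher and 0 lower at an unadjusted p under 0.05 (2.67% and 3.23% of all tested probes), and the median was 0.07. The mean signal per gene of this list was 418 to 442% of the 75th percentile with P61S/R100E and at most 408% on the pooled arrays, also without overlap. In 4 the P61S/R100E arrays lay above all others (2.49% of all tested probes), with Hmgcs1, an early enzyme of the pathway, at 0.26 (SE 0.0867) and Hsd17b7, a later one, at 0.25 (SE 0.0571). Of 25 inflammatory mediators 1 was called higher (Il24) and 0 lower (0.0532% and 0.0399% of all tested probes). Il6 (-0.34) and the prostaglandin E synthase gene Ptges (-0.35) did not pass. Apoptosis and survival genes had 0 of 24 called by limma, with 1 higher and 1 lower at an unadjusted p under 0.05 (2.67% and 3.23% of all tested probes). There the pro-apoptotic gene Hrk was at 0.44 (SE 0.0667, limma adjusted p 0.0910) by one probe and at -0.09 by another. Limma called 0 of 27 glycolysis and hypoxia genes (median -0.09), 0 of 24 endoplasmic reticulum stress genes (median 0.00) and 0 of 25 interferon-induced genes (median -0.12). At an unadjusted p under 0.05 there were 1, 0 and 1, the ones counted being lower (3.23% of all tested probes).

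The cultures expressed the markers that a dissociated ganglion should hold. Stmn2, a tubulin regulator of growing neurons, was at 5.19 to 5.55 on the 8 arrays, the myelin gene Mbp at 4.54 to 4.97 and the collagen gene Col1a1 at 4.72 to 5.27. The 8 cell type lists had 1 call, Calb2 among 17 markers of large-diameter neurons (lower, beside 0.0399% of all tested probes). Their medians were -0.04 for 19 pan-neuronal genes, -0.05 for large-diameter neurons, 0.00 for 16 satellite glia genes, -0.02 for 21 Schwann cell genes, 0.06 for 19 fibroblast genes, 0.07 for 20 macrophage genes, 0.02 for 21 cell cycle genes and -0.10 for 13 endothelial and mural genes.

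Summed over each of the 8 cell type lists, the mean signal per gene overlapped between the groups. As a percentage of the 75th percentile it was 1155 to 1241 for pan-neuronal genes on the P61S/R100E arrays and 1085 to 1273 on the pooled ones. For large-diameter neurons it was 84.6 to 87.1 and 85.4 to 87.7, for macrophages 295 to 359 and 300 to 339, and for fibroblasts 1330 to 1609 and 1302 to 1455. At an unadjusted p under 0.05, macrophage markers were 3 higher and 0 lower, beside 2.67% and 3.23% of all tested probes. Laptm5 was at 0.33 and Ptprc at 0.26. Other macrophage markers went the other way without reaching that p, among them Cd68 (-0.25), Cybb (-0.20) and Spi1 (-0.17). Kcna1, a potassium channel of large neurons, was at 0.65, opposite to Calb2, and Calb1 was at -0.47, the same way as Calb2. None of the list but Calb2 passed. The macrophage marker Cd163 and the endothelial marker Tek were above background on 0 of 8 arrays, Tie1 on 1 and Cldn5 on 4. The part of cell composition in the called differences was not tested.

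**Figure D4:**
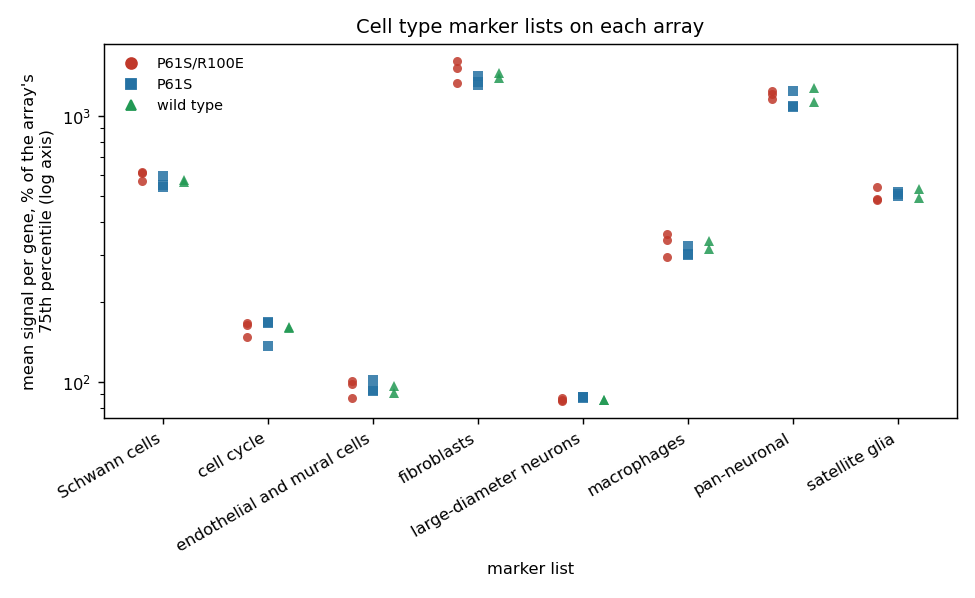
Mean signal per gene of each cell type list on each array, as a percentage of the array's 75th percentile (log axis), for P61S/R100E (circles), P61S (squares) and wild type (triangles). The 3 P61S/R100E arrays overlap the other 5 in every list, as with 1155 to 1241 against 1085 to 1273 for pan-neuronal genes.

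The calls depended on the setting. Over the 28 alternative settings the 21 differences were 0.394 to 1.21 times the reported size. Since the groups of these probes do not overlap, leaving out or weighting arrays could not turn their direction. Vip was past the threshold in 15 of 27 alternative fits, Anxa3 in 14, Pde6b, Calb2 and Crisp3 in 11 each, and Mrgprb5 in 4. In simulated arrays of this layout, with 50 probes changed at each of 4 sizes, limma recovered 31 to 39 of those changed 2-fold and 14 to 30 of those changed 1.5-fold, while 5 to 11 unchanged probes were called. Those simulated arrays varied independently, which P61S replicates 1 and 3 may not. The simulated sizes included 4-fold and 8-fold, above the largest called difference of 3.24-fold. Such changes ease the Benjamini-Hochberg threshold for the rest, so these counts need not hold for the data.

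**Figure D5:**
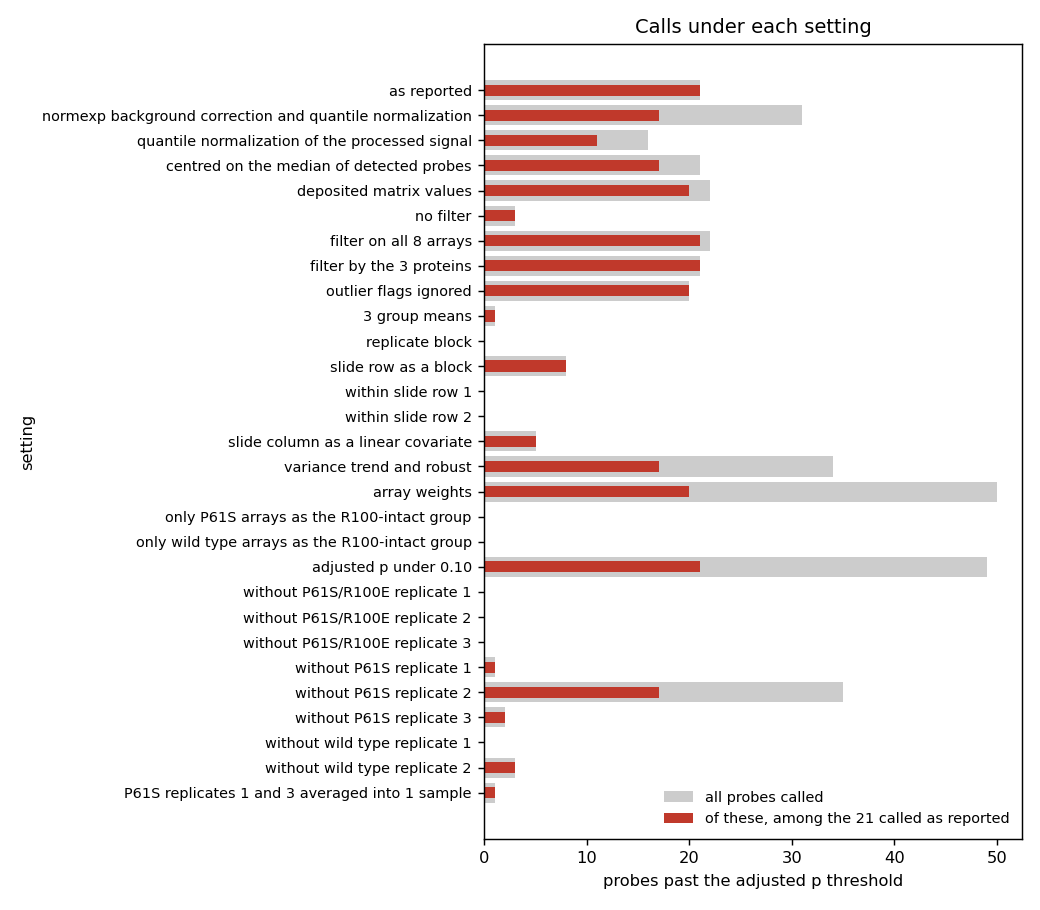
Number of probes past the adjusted p threshold (horizontal axis) under each setting; grey bars count all probes called and red bars those among the 21 called as reported. The count is 21 as reported, 1 with P61S replicates 1 and 3 averaged, 0 without any one P61S/R100E array and 50 with array weights.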

How the data were processed

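Per the labels' protocols, RNA was labelled with Cy3 in a one-colour Agilent protocol and RNA with an integrity number under the submitters' minimum was discarded. Per the file headers, the deposited intensity of each spot is the background-subtracted processed signal of Agilent Feature Extraction 10.7.3.1, on an array designed on rn4. All 8 arrays were on 1 slide with 1 scan time. A matrix of deposited log2 values (22018 probes) was used as an alternative.

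Spots were averaged per probe on the log2 scale, without outlier spots, and each array's 75th percentile was subtracted. Of 30367 probes 17998 had a symbol, matched by RefSeq accession to GRCr8 names, and 12369 had none. Probes well above background on every array of either group were tested with limma 3.58.1 in R 4.3.3 (2 group means, Benjamini-Hochberg adjusted p under 0.05 over 22565 probes). A detected probe was one with most of its kept spots well above background. The number of arrays limits the precision.

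The comparison, the 23 gene lists and the rules were chosen with earlier results of these data known. Named genes were those called, at most 15 in each direction, or else the 12 symbols of smallest p in a direction, with list members called or, where fewer than 2 were, the 4 of smallest p, and 8 example genes. A gene's brightest probe stood for it in lists. Normexp correction used the median signal, since the mean signal planned for it is not a column of the files used here. The main fit left the arrays unpaired. Deviations of same-numbered arrays correlated at -0.177 to 0.0956 over probes, and at 0.0223, 0.0794 and 0.0482 between P61S/R100E and P61S. Differently numbered arrays of those groups were at -0.0618 to 0.0306. The deviations of the 2 wild type arrays mirror each other, so these values do not settle whether replicate numbers pair the arrays. Averaging P61S replicates 1 and 3, and the difference within slide column 2, were chosen after seeing the data. The alternatives otherwise changed background correction, normalization, filters, grouping, slide position, the variance model, array weights and the threshold, or left out each array. The test was checked on 5 sets of simulated data. Tables were made in pandas 2.3.3 under Python 3.11.15, with figures from matplotlib 3.10.9. Some items these rules take are not reported here.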

Additional observations from a re-analysis of the deposited data

Results flagged for a closer look

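In the 5 pooled arrays, 9 of the named probes (8.41%) had 1 array far from the rest, by a gap over 0.71 of the whole range. For 5 independent values chance gives about 1 in 20, or 5.3 of the probes tested. Most of these probes were named for a small p, and the share over all tested probes is not given here. All 9 were from 2 arrays. P61S replicate 2 was the highest for Il24 at -0.76 (next -1.37), Nts at -1.57 (next -1.98), Ucn at -4.32 (next -4.66) and Crtac1 at 1.53 (next 1.31). Wild type replicate 2 was the highest for Ccnd1, a cell cycle gene, at 1.18, Sesn2, a stress gene, at -1.49, Ptges at -2.47 and Tac1 at 5.05, and the lowest for Idi1, an enzyme of cholesterol synthesis, at 1.94. P61S replicates 1 and 3 are nearly the same in value, which narrows the range against which P61S replicate 2 is judged. What sets these arrays apart was not tested.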

How the results depend on the processing

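The count of 21 calls stayed within 1.5 times under normexp with quantile normalization (31), quantile normalization (16), median centring (21, 14 of them higher against 12), the deposited values (22), a filter on all 8 arrays (22), a filter by the 3 proteins (21) and with outlier flags ignored (20). It moved to 3 with no filter, 1 with 3 group means, 8 with the slide row as a block, 0 within slide row 1 and 0 within slide row 2, 5 with the slide column as a covariate, 34 with a variance trend and robust fit, 50 with array weights, 0 with only the P61S arrays, 0 with only the wild type arrays and 49 at an adjusted p under 0.10. It was 1 with P61S replicates 1 and 3 averaged, an alternative added after seeing the data. Array weights gave P61S replicates 1 and 3 weights of 6.64 and 3.90, the others 0.216 to 1.02. With the replicate block the count was 0 (1317 probes at an unadjusted p under 0.05). Whether the replicate numbers pair the arrays was not settled. Leaving out 1 array gave 0 to 35 calls. P61S against wild type gave 0 calls in all other settings, the replicate block included, and 0 to 317 with 1 array left out, 317 without wild type replicate 1 and 1 without either P61S replicate 2 or wild type replicate 2. Where an arm keeps 1 array, as in row 1, it is assumed to vary like the other. The cause of these moves was not tested. Elf5 and Mrgprb5, both dim, changed most in size. This was under normexp for Elf5, and with outlier flags ignored or the deposited values for Mrgprb5.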

Other observations

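The 3 called probes without a gene symbol are A_64_P151259 (-0.99, SE 0.0938), A_64_P003854 (-1.17, SE 0.129) and A_64_P042421 (0.83, SE 0.0982). The first was at -2.12, -1.92 and -1.96 with P61S/R100E and at -1.19 to -0.84 on the intact arrays.

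A further probe without a symbol, A_44_P210394, was well above background on the 3 P61S/R100E arrays and on 0 of the 5 others. It was at -4.49, -5.95 and -1.71 with P61S/R100E, and its measured mean in the pool was -9.25. Its signal was at least 18.0-fold higher, taking for each intact array the larger of its own value and the lowest signal well above background there, and it did not pass (limma adjusted p 0.154). That bound rests on the brightest array: without P61S/R100E replicate 3 it is 8.01-fold, and 34.8-fold without replicate 2. Sim2, a transcription factor, was above background only on the intact arrays, at least 1.43-fold (limma adjusted p 0.714). Probe A_64_P070354 was likewise at least 1.79-fold (limma adjusted p 0.826), or 1.41-fold without P61S replicate 3. Its groups overlapped, with P61S/R100E replicate 2 at -7.79 and P61S replicate 2 at -7.89. These 3 probes were taken because only 1 group was above background, so the direction of each bound follows from that choice. Of 22565 tested probes 96 differed by more than 1 on the log2 scale, and 8 of those were called.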
